A study of Mus musculus with 10 samples.

Results

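The 10 photoreceptor transcription regulators Crx, Nrl, Nr2e3, Otx2, Rorb, Prdm1, Neurod1, Esrrb, Mef2d and Samd7 were followed through late retina development by the H3K4me2 and H3K27me3 around their transcription start sites (TSS). They form a list drawn up with earlier results of these data known, were found in the deposited table by symbol, and matched 14 of the 25152 rows and 10 of its 20045 gene symbols, since Crx, Nrl, Rorb and Esrrb each have 2 rows. H3K4me2 marks promoters that are in use or ready for use, and H3K27me3 is the mark that Polycomb proteins place on silent genes. Retinas were collected before birth at E17.5 and on postnatal days 1, 7 and 15 (PN1, PN7, PN15), at least 20 retinas were taken for each stage, and chromatin immunoprecipitation with an antibody against 1 of the 2 marks was followed by sequencing (ChIP-Seq). Each of the 8 libraries stands for 1 mark at 1 stage and has no replicate, so no difference between stages could be set against the spread between animals and no p-value is given. The study's methods describe wild type C57BL/6j mice, while the labels give E17 for the stage before birth and Pde6b (rd1/rd1) mutant mice, which lose their rods, for every library. The catalogue numbers of the 2 antibodies also differ between labels and methods, and the library titles were followed for the mark. The H3K4me2 library of rd1/rd1 retinas at PN30 and the anti-GFP control at PN56 have no column in the table and were not analysed here.

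Photoreceptors are born from retinal progenitors, and their precursors choose between the rod and cone fates under a small network of transcription factors. Otx2 and Rorb act early in the network, Otx2 drives Crx, and Nrl together with its target Nr2e3 commits a precursor to the rod fate. Crx then activates rod and cone genes with Nrl, Nr2e3, Neurod1, Mef2d and Esrrb as partners, while Prdm1 and Samd7 are repressors that keep the genes of other cell types down. H3K27me3 is written by Polycomb repressive complex 2 and often lies over the promoters of developmental regulators before they are used.

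The values are normalized occupancies, namely the reads within 2.5 kb on either side of a TSS, scaled by the authors to sequencing depth and then rounded, so that every window has the same length. Values of the 4 stages are given in the order E17.5, PN1, PN7 and PN15. Counting intervals are exact 95% intervals from the value of 1 read, cover counting error only, and are the widest possible for the 3 libraries where that value was at most 1 but could not be read off (H3K4me2 at PN7 and PN15, H3K27me3 at E17.5). A change is the log2 ratio of later to earlier occupancy with 1 added to each, minus the median of the same quantity over all 20045 symbols, and a gene is said to have risen or fallen where this relative log2 change was at least 1 in size. The medians that were subtracted were 0.13 for H3K4me2 and 0 for H3K27me3 from E17.5 to PN15. Background was the 99th percentile of 1053 olfactory receptor rows in the same library, receptors of another tissue. It lay between 1 and 9.48 for H3K4me2 and between 33.5 and 44.0 for H3K27me3. The paper found no H3K27me3 at most, but not all, olfactory receptor genes. For that mark the limit is therefore a high one, and a value below it does not show absence of the mark. Median H3K27me3 of these rows was 6 to 10, and the 99th percentile of vomeronasal receptor rows was 16.6 to 26.6. The H3K4me2 library of PN7 stood apart, with 19.5% of rows at 0 against 0.362% to 2.52% in the other H3K4me2 libraries, and the H3K4me2 rises that rest on it are also given from PN1. Of 7 retina markers 6 to 7 were above the H3K4me2 background at each stage. The defining markers of other tissues were low, with H3K4me2 of at most 5 for Rpe65 of the pigment epithelium, at most 9 for Cryaa of the lens, at most 5 for Hbb-b1 of blood, at most 5 for Pecam1 of endothelium and at most 5 for Cx3cr1 of microglia, while Cldn5, Dct and Mitf of the same lists reached 40, 29 and 67. The summed H3K4me2 over 3 blood, 4 endothelial, 5 microglial, 6 lens and 7 pigment epithelium markers ranged from 6 to 119 by list and stage, and at PN15 was 22, 22, 22, 29 and 119 in that order, against 39, 67, 17, 49 and 115 at E17.5. The part of these cells in the results was not tested. In these whole retinas a larger share of photoreceptors and more mark per photoreceptor cannot be told apart.

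**Figure D1:**
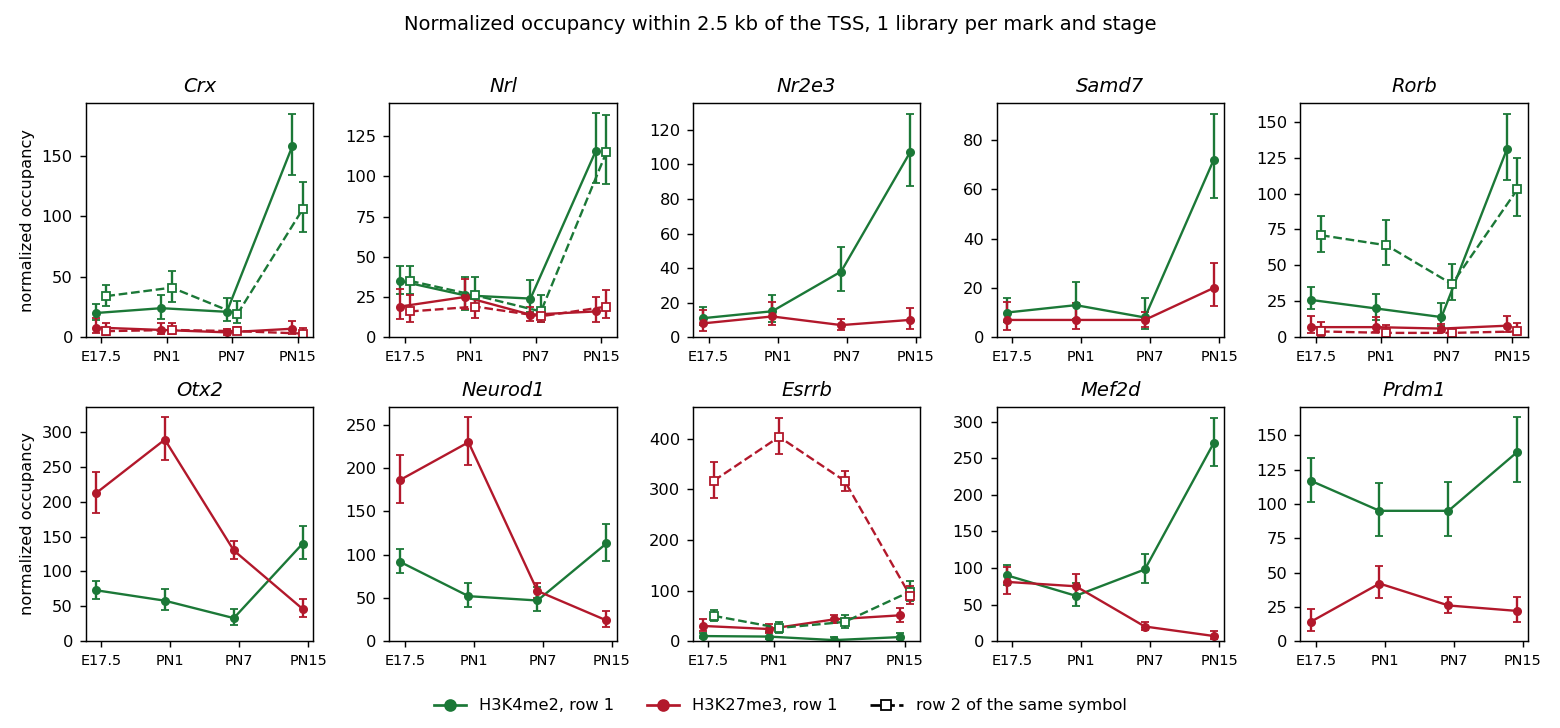
Normalized occupancy within 2.5 kb of the TSS (vertical axis, a separate linear scale for each gene) by stage (horizontal axis) for the 10 regulators, 1 library per point. Green is H3K4me2, red is H3K27me3, open squares are the second row of a gene, and bars are exact 95% counting intervals. In Crx, Nrl, Nr2e3, Samd7 and Rorb the red values stayed below the 99th percentile background, with Samd7 going from 7 to 20, and green was highest at PN15, and in Otx2, Neurod1, Mef2d and the second Esrrb row the red values were high at birth and lower at PN15.

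From E17.5 to PN15 H3K4me2 rose at 5 of the 10 regulators (Crx, Nrl, Nr2e3, Samd7 and Mef2d) and fell at none, where 5.17% of all symbols rose and 12.8% fell. H3K27me3 fell at 4 (Otx2, Neurod1, Esrrb and Mef2d, where 16.1% of all symbols fell) and rose at 1 (Samd7, where 12.2% rose). Mef2d did both, as 1.03% of all symbols did, while Esrrb and Otx2 lost H3K27me3 with relative H3K4me2 changes of 0.82 and 0.80, just under the limit. The median relative log2 change over the 10 regulators was 1.14 for H3K4me2 and −0.20 for H3K27me3, with 0 over all symbols by construction and quartiles over all symbols of −0.49 and 0.37 for H3K4me2 and −0.66 and 0.51 for H3K27me3. As deposited, 10 of 10 regulators had more H3K4me2 at PN15 than before birth, against 56.4% of all symbols, and PN15 was the highest stage at 10 of 10, against 47.9%.

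Otx2, the homeobox factor that starts photoreceptor development, lies on chromosome 14 (mm9, 49277354 to 49287319, minus strand). Its H3K27me3 was 212, 289, 130 and 46 by stage, while its H3K4me2 was 73, 58, 33 and 140. H3K27me3 was therefore highest at birth, and 3 stages lay far above the background of their library. The value at PN15 was just above its background of 41.5, which lies inside its counting interval of 34.6 to 60.5. The fall from E17.5 to PN15 was 4.61-fold (95% counting interval 3.38 to 6.32). H3K4me2 at PN15 was 1.92 times that at E17.5 (interval 1.51 to 2.45), a relative log2 change of 0.80 that did not reach the limit.

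Crx, the homeobox factor that activates both rod and cone genes, lies on chromosome 7 (mm9, 16451296 to 16465317, minus strand) and was low in H3K27me3 throughout. Its first row had an H3K4me2 of 20, 24, 21 and 158 by stage, and an H3K27me3 of 8, 6, 4 and 7. The first 3 stages overlapped within their counting intervals and PN15 stood alone, 7.90 times E17.5 (interval 5.55 to 11.7). The second row, which may lie at another of the annotated TSS that spread over 8566 bp, had 34, 41, 19 and 106 for H3K4me2, a ratio of 3.12 (interval 2.28 to 4.36), and 5, 6, 5 and 3 for H3K27me3. No H3K27me3 value of Crx came near the background of its library, the lowest of which was 33.5. Over all symbols Crx ranked 12928 in H3K4me2 at E17.5 and 194 at PN15.

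Rorb, a nuclear receptor that acts upstream of Nrl, spans chromosome 19 from 19005095 to 19185686 (mm9, minus strand), with annotated TSS 110079 bp apart. The 2 rows differed in H3K4me2. The first had 26, 20, 14 and 131, 5.04 times as much at PN15 as at E17.5 (interval 3.57 to 7.08), and the second had 71, 64, 37 and 103, a ratio of 1.45 (interval 1.11 to 1.88). At E17.5 the intervals of the rows did not overlap (19.4 to 34.7 and 59.6 to 84.4), while at PN15 they did (110 to 155 and 84.1 to 125). Because the second row has the larger sum it stands for Rorb in the counts, with a relative log2 change of 0.40. The first row had a relative log2 change of 2.16. The table does not tell which TSS each row belongs to. H3K27me3 was between 6 and 8 in the first row and between 3 and 4 in the second, the lowest of the 10 genes by the rows counted.

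Neurod1, a basic helix-loop-helix factor of photoreceptor precursors, lies on chromosome 2 (mm9, 79292678 to 79296908, minus strand). Its H3K27me3 was 186, 230, 58 and 24 by stage. The mark was highest at birth, remained above background at PN7, and at PN15 was below the background of 41.5, a 7.75-fold fall from E17.5 (interval 5.10 to 11.8). H3K4me2 was 92, 52, 47 and 113, and the ratio of PN15 to E17.5 was 1.23 with an interval of 0.959 to 1.56 that includes no change. The promoter of Neurod1 is shown because it is rich in CpG dinucleotides, 22 in the 250 bases before the annotated start (RefSeq, GRCm38.p6, chr2:79456637-79456886, minus strand, capitals mark CpG):
Neurod1: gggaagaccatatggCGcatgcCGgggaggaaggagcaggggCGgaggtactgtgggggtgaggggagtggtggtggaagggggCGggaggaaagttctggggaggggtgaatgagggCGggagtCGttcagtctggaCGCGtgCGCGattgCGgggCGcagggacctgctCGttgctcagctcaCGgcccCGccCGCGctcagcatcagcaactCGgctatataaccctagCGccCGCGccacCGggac

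Nrl, the leucine zipper factor that decides the rod fate, lies on chromosome 14 (mm9, 56137815 to 56143818, minus strand). Its first row had an H3K4me2 of 35, 26, 24 and 116 by stage. H3K4me2 was thus above background from the first stage, had relative log2 changes of 0 and 0.39 in the steps up to PN7, and was 3.31 times E17.5 at PN15 (interval 2.44 to 4.59). The second row had 35, 26, 16 and 115, and with TSS annotated 790 bp apart the windows of both rows can share most of their reads. H3K27me3 was 19, 25, 14 and 16 in the first row and 16, 19, 13 and 19 in the second, all below background. The call at PN1 depends on the background, since 25 was above the 95th percentile of the olfactory receptor rows (22) and the 99th of the vomeronasal receptor rows (16.6). The first row lay at percentiles 65.0 to 77.1 of all symbols, and Crx at 15.8 to 34.5.

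Nr2e3, the nuclear receptor that Nrl induces and that represses cone genes in rods, lies on chromosome 9 (mm9, 59790578 to 59808466, minus strand) and has 1 annotated TSS. Its H3K4me2 was 11, 15, 38 and 107 by stage. Of the 4 genes that gained H3K4me2 with no H3K27me3 above background, it was the only one with more H3K4me2 at PN7 than at PN1, and the ratio of PN7 to PN1 was 2.53 (interval 1.37 to 4.82). The ratio of PN15 to E17.5 was 9.73 (interval 5.92 to 16.0), above the ratios of the other 9 genes, although the interval overlaps those of Crx, Samd7 and the first Rorb row. H3K27me3 was 8, 12, 7 and 10. The promoters of Crx and Nr2e3 are shown as the CpG-poor counterparts of Neurod1, with 1 and 3 CpG (chr7:15879956-15880205 and chr9:59950080-59950329, GRCm38.p6, minus strand, capitals mark CpG):
Crx: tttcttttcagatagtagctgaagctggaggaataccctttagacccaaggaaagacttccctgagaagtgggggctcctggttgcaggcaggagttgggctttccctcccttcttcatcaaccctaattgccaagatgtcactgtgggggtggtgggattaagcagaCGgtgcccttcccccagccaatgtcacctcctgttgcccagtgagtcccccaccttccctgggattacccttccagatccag
Nr2e3: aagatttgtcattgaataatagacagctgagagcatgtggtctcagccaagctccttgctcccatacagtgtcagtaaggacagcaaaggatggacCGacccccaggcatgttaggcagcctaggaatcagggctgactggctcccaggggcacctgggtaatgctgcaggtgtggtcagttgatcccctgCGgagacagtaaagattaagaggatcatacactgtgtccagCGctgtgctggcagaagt

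Mef2d, a MADS box factor that binds with Crx at photoreceptor genes, lies on chromosome 3 (mm9, 87946294 to 87976008, plus strand) with 3 annotated TSS within 200 bp. It started with both marks. H3K4me2 was 90, 62, 98 and 271 by stage, and the value at PN15 was the third highest of all 20045 symbols. H3K27me3 was 81, 75, 20 and 7, above the background at E17.5 and PN1 and below it from PN7. The ratio of PN15 to E17.5 was 3.01 for H3K4me2 (interval 2.48 to 3.67), and H3K27me3 fell 11.6-fold (interval 5.62 to 27.8). From PN1 to PN7 H3K27me3 fell 3.75-fold (interval 2.71 to 5.27), and from PN7 to PN15 2.86-fold (interval 1.37 to 6.92). Its promoter holds 19 CpG (chr3:88142122-88142371, GRCm38.p6, plus strand, capitals mark CpG):
Mef2d: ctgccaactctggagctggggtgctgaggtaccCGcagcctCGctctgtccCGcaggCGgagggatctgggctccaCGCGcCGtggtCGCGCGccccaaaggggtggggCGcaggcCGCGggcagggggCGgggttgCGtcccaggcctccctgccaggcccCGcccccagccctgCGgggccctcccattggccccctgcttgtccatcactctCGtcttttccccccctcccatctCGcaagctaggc

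Esrrb, an orphan nuclear receptor expressed in rods, spans chromosome 12 from 87702067 to 87862578 (mm9, plus strand), and its annotated TSS lie up to 109000 bp apart. The second row had an H3K27me3 of 317, 404, 317 and 90 by stage, the highest of the 10 genes at each stage. It fell 3.52-fold from E17.5 to PN15 (interval 2.82 to 4.45) and stayed above background. The first row had 30, 24, 43 and 51, and was above background at PN7 and PN15 only. Its ratio of PN15 to E17.5 was 1.70 (interval 1.07 to 2.72), a relative log2 change of 0.75, while that of the second row was −1.81. The difference between the rows was not tested. H3K4me2 was 50, 26, 38 and 98 in the second row, with a ratio of PN15 to E17.5 of 1.96 (interval 1.47 to 2.64), and 10, 9, 2 and 8 in the first. The first row was the only one of the 14 with less H3K4me2 at PN15 than at E17.5.

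Prdm1, a zinc finger repressor that holds photoreceptor precursors back from the bipolar fate, lies on chromosome 10 (mm9, 44156983 to 44248307, minus strand). Its H3K4me2 was 117, 95, 95 and 138 by stage. It was high at every stage, at percentiles 97.4 to 99.8 of all symbols, and the ratio of PN15 to E17.5 was 1.18 with an interval of 0.948 to 1.47. H3K27me3 was 14, 42, 26 and 22. From E17.5 to PN1 it rose, the only one of the 10 genes to do so where 5.77% of all symbols rose, by a ratio of 3.0 (interval 1.63 to 5.84). The value at PN1 was below the background of 44.0, which lies inside its counting interval of 31.1 to 55.0.

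Samd7, a SAM domain protein that works with Polycomb repressive complex 1 in rods, lies on chromosome 3 (mm9, 30645215 to 30666096, plus strand). Its H3K4me2 was 10, 13, 8 and 72 by stage. The first 3 stages overlapped within their intervals and lay at percentiles 30.2 to 35.1 of all symbols, and PN15 was 7.20 times E17.5 (interval 4.22 to 12.4). H3K27me3 was 7 at each of the first 3 stages and 20 at PN15, a ratio of 2.86 (interval 1.19 to 7.91) that made Samd7 the only regulator with higher H3K27me3 by the limit. The value at PN15 was below the background of 41.5, and its interval of 12.7 to 30.1 ends below it. The Samd7 promoter has 1 CpG (chr3:30746043-30746292, GRCm38.p6, plus strand, capitals mark CpG):
Samd7: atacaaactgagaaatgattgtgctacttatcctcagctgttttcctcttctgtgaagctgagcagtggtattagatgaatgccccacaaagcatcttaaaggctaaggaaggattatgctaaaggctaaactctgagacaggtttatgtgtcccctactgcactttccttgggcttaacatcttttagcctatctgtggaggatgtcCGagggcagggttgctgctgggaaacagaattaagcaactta

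The steps between neighbouring stages separated the genes further. From E17.5 to PN1 H3K4me2 rose at 0 of the 10 genes, where 13.7% of all symbols rose, and fell at 0, where 1.12% fell. Among the symbols with at least 10 in 1 of the libraries compared, as the 10 genes had, 1.84% rose relative to the median of those symbols, and 0 of the 10 genes did. Relative changes lay between −0.50 and 0.83. From PN1 to PN7 it rose at 3 (Nr2e3 by 1.79, Mef2d by 1.15 and Esrrb by 1.03 on the relative log2 scale), where 13.7% of all symbols rose. Without subtraction of the median Nr2e3 alone passed the limit, as 4.09% of all symbols did, and Mef2d and Esrrb had log2 changes of 0.65 and 0.53. From PN7 to PN15 it rose at 4 (Samd7 by 2.02, Crx by 1.85, Nrl by 1.23 and Otx2 by 1.05), where 15.9% rose, and without subtraction of the median at 9, where 52.3% of all symbols rose. The median of all symbols moved by −0.50 and 1.0 over these last 2 steps, both of which rest on the PN7 library. From PN1 directly to PN15 6 genes rose, namely Nr2e3, Crx, Samd7, Nrl, Mef2d and Esrrb with 2.25, 2.17, 1.88, 1.61, 1.61 and 1.37, where 4.52% of all symbols rose, and Otx2 with 0.75 did not reach the limit. The step from PN7 to PN15 was the largest of the 3 at 5 of the 10 genes, against 31.5% of all symbols, and this count cannot be had without the PN7 library. The first Esrrb row, not used in the counts, fell from PN1 to PN7 by 1.24 on the relative log2 scale, from 9 to 2.

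**Figure D2:**
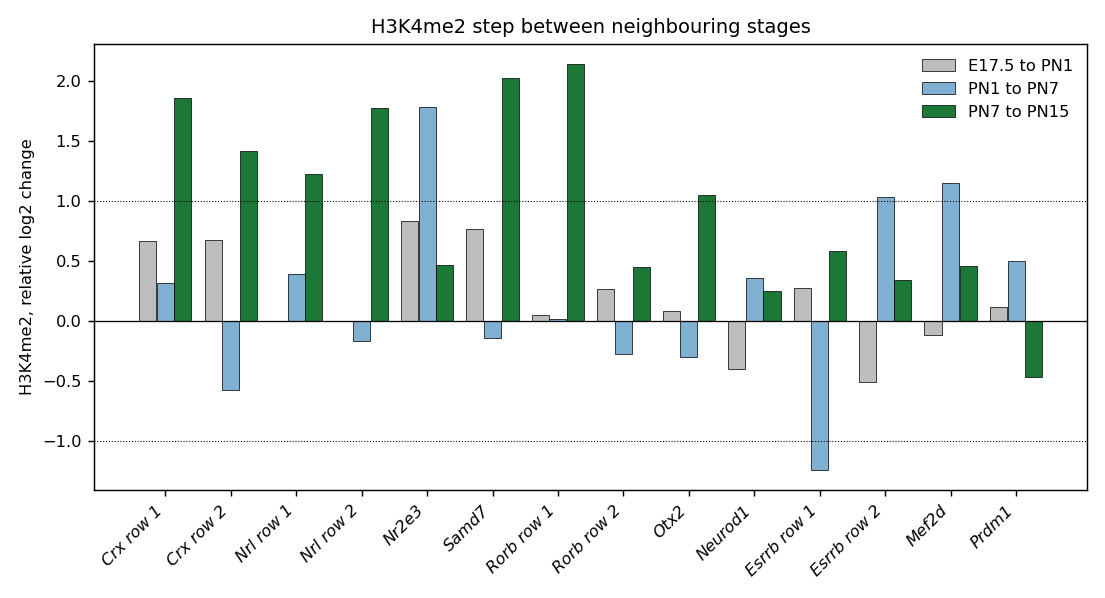
Relative log2 change of H3K4me2 (vertical axis, log2 units after subtraction of the median over all symbols) for each of the 14 rows, with 1 bar for each step between neighbouring stages and dotted lines at the limits of 1 and −1. There are no error bars because each stage has 1 library. The green bar of PN7 to PN15 passes the upper line for Crx, Nrl, Samd7, Otx2 and the first Rorb row, and the blue bar of PN1 to PN7 for Nr2e3, Mef2d and the second Esrrb row, while that of the first Esrrb row passes the lower line.

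H3K27me3 was read over the same steps. From E17.5 to PN1 it fell at 0 genes, where 8.27% of all symbols fell, and from PN1 to PN7 it rose at 0, where 8.44% rose. From PN1 to PN7 it fell at 2 genes, Neurod1 by 1.81 and Mef2d by 1.70 on the relative log2 scale, where 9.33% of all symbols fell, and Otx2 had −0.99. From PN7 to PN15 it fell at 4, with Esrrb at −1.81, Otx2 at −1.48, Mef2d at −1.39 and Neurod1 at −1.24, where 9.70% of all symbols fell, and Samd7 had 1.39. By these values the larger step came before PN7 at Neurod1 and Mef2d and after it at Otx2 and Esrrb, with no test of the difference between steps. H3K27me3 was highest at PN1 at 6 of the 10 genes (Otx2, Neurod1, Esrrb, Prdm1, Nrl and Nr2e3), against 28.9% of all symbols. Over all rows the H3K27me3 libraries had medians of 10, 10, 9 and 10 by stage but maxima of 809, 1125, 766 and 416. The subtracted median therefore does not adjust for such a difference at marked genes. Summed H3K27me3 of 13 inner retina regulators, all above background at each stage, was 3992, 5688, 4309 and 2605. The shares of all symbols include the many without the mark above background.

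All 10 regulators had H3K4me2 above background in every library, against 72.6%, 69.0%, 72.1% and 68.3% of all symbols by stage. H3K27me3 was above background at 4 genes at E17.5 and at PN1 (17.1% and 15.4% of all symbols), at 3 at PN7 (15.9%) and at 2 at PN15 (13.8%). Since H3K4me2 was present throughout, these were also the genes with both marks, for which the shares of all symbols were 15.6%, 13.1%, 14.6% and 10.9%. The 4 genes at E17.5 were Otx2, Neurod1, Esrrb and Mef2d. Mef2d left by PN7 and Neurod1 by PN15. H3K27me3 fell from E17.5 to PN15 at 4 of these 4, and at 43.4% of the 3427 symbols that were above background at E17.5. Crx, Nrl, Nr2e3 and Samd7 gained H3K4me2 with H3K27me3 at or under background at all 4 stages, a combination found at 4.29% of all symbols. With the 95th percentile of the olfactory receptor rows or the 99th of the vomeronasal receptor rows as background, Nrl left this group at PN1 and 3 genes remained (3.73% and 3.39% of all symbols). Prdm1 was then above background at PN1 and PN7. This made 6 genes at PN1 and 4 or 5 at PN7, the fifth being Mef2d with the vomeronasal receptor rows. By these backgrounds, in the order given, 24.8% and 31.6% of all symbols were above at PN1, and 24.3% and 29.5% at PN7.

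**Figure D3:**
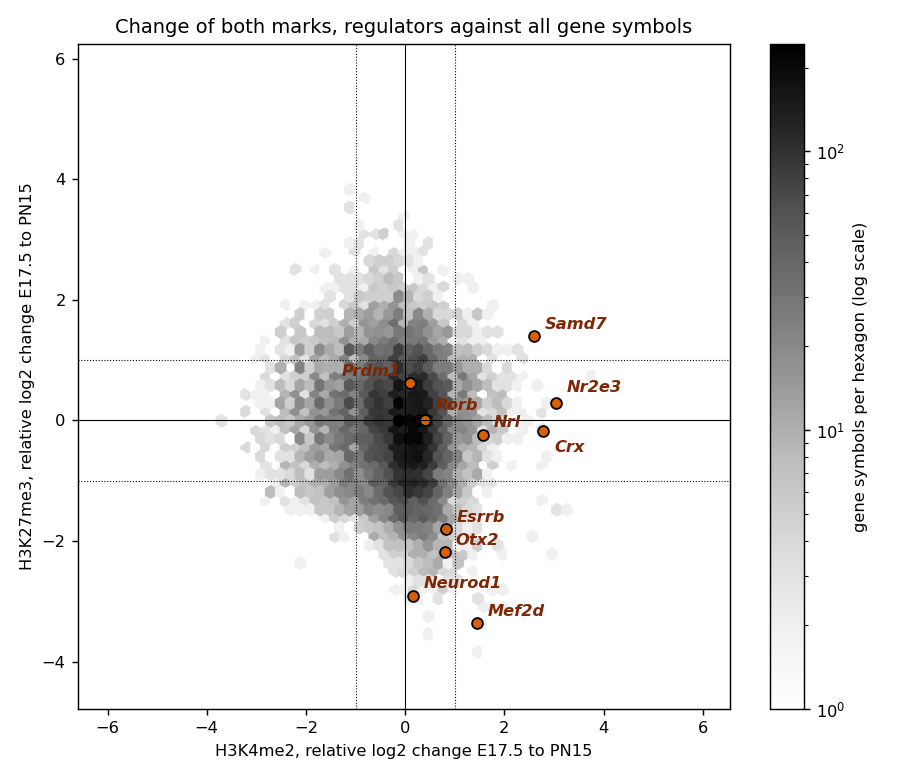
Relative log2 change from E17.5 to PN15 of H3K4me2 (horizontal axis) and of H3K27me3 (vertical axis) for the 10 regulators (orange points, the row with the largest sum for each gene) over all 20045 symbols (grey hexagons, darker for more symbols on a log scale). Dotted lines mark the limits of 1 and −1. Crx, Nrl, Nr2e3 and Samd7 lie to the right, Otx2, Neurod1 and Esrrb below, Mef2d in the lower right, and Rorb and Prdm1 inside the limits.

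Ranks within a library do not move with its scaling. In H3K4me2 the regulators spanned percentiles 30.2 to 99.1 at E17.5 with a median of 69.9, and percentile 70.9 or more at PN15 with a median of 93.1. Samd7, Nr2e3, Crx and Nrl were the lowest at E17.5 with 30.2, 30.9, 35.2 and 44.6. At PN15 Crx stood at rank 194 of 20045, Nrl at percentile 93.6, Nr2e3 at 90.7 and Samd7 at 70.9. In H3K27me3 Mef2d went from percentile 90.8 at E17.5 to 26.8 at PN15 and Neurod1 from 95.2 to 76.8, while Otx2 went from 95.9 to 87.7 and Esrrb from 97.7 to 94.4. Samd7 moved the other way, from 27.5 to 72.6.

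**Figure D4:**
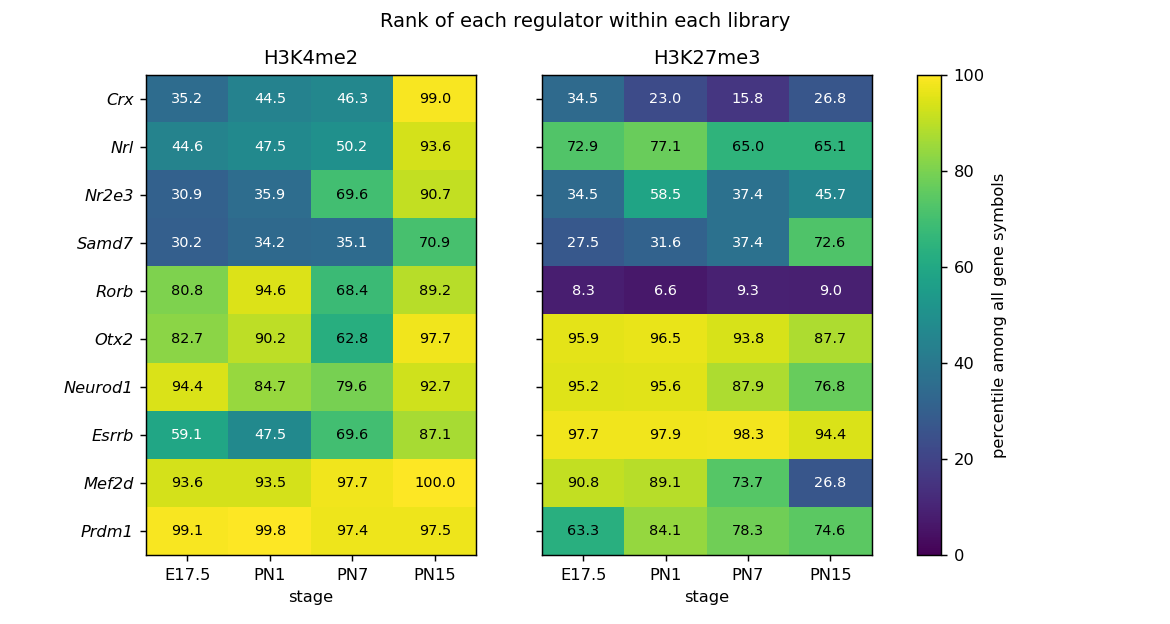
Percentile of each regulator (rows, the row of the table with the largest sum) among all 20045 symbols in each library (columns, by stage), for H3K4me2 on the left and H3K27me3 on the right. The colour scale runs from 0 (dark) to 100 (yellow). H3K4me2 brightens at PN15 for Crx, Nrl, Nr2e3 and Samd7, and H3K27me3 darkens for Mef2d, from 90.8 to 26.8.

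The promoters printed above differ in CpG content, and the other promoters were compared in the same way. The RefSeq promoters used here include 15 of the 10 genes (10 of 10 matched) among 32851 in all, and the ratio of observed to expected CpG over the 250 bases before the start had a median of 0.373 over all of them. Crx with 0.0544, Samd7 with 0.0847, Nrl with 0.144 and Nr2e3 with 0.175 were all below that median. Neurod1 with 0.841, Prdm1 with 0.710, Mef2d with 0.574, the 4 promoters of Otx2 with 0.529 to 1.03 and the 2 of Rorb with 0.421 and 0.696 were above it. The 4 genes with an H3K4me2 gain from E17.5 to PN15 and no H3K27me3 above background thus had the 4 lowest ratios with Rorb counted by its second row, while the first Rorb row met the same description with ratios above the median, and Otx2, Neurod1 and Mef2d, which lost H3K27me3, had high ones. Esrrb is an exception, with ratios of 0.188 and 0.264 and H3K27me3 of up to 404, and so are Rorb, whose H3K27me3 did not exceed 8, and Prdm1, whose H3K27me3 of at most 42 was below background at every stage by the 99th percentile and above it at PN1 and PN7 by the lower backgrounds given before. This is a description of 10 genes, and the builds of the promoters (GRCm38.p6) and of the occupancies (mm9) differ.

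**Figure D5:**
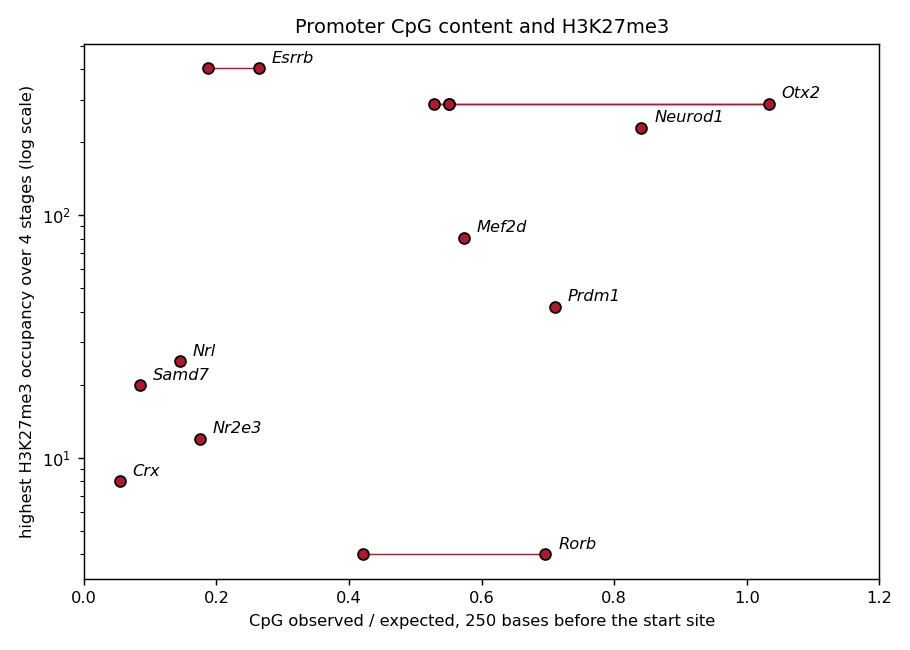
Ratio of observed to expected CpG in the 250 bases before each annotated start (horizontal axis, no unit) against the highest H3K27me3 occupancy over the 4 stages in the row with the largest sum (vertical axis, log scale), with a line joining the promoters of 1 gene. Crx, Nr2e3, Samd7 and Nrl lie at the lower left, Otx2, Neurod1 and Mef2d to the upper right, Esrrb at the upper left, Rorb at the lower right and Prdm1 to the right at middle height with a ratio of 0.710 and a highest value of 42.

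The same windows were searched on both strands for the core letters of sites that the regulators themselves are known to bind. TAATCC, the Crx and Otx core, was in 3 of the 15 promoters, 1 each of Crx, Otx2 and Samd7, and in 6.25% of all promoters. Crx had 2 copies, at 94 and 21 bases before the start and both on the minus strand of the window, and Samd7 had 1 at 139 bases, also read as ggatta in the sequences above. TGCTGA, the core of sites for Nrl and other Maf factors, was in 4 of the 15, and in 16.1% of all promoters. These were 1 each of Mef2d, Neurod1, Otx2 and Rorb. CAGATG, an E-box of Neurod1, was in 2 of the 15, 1 each of Nrl and Otx2 (14.4% of all). TATTTA, the Mef2 core, was in 1 of Rorb (12.7%). GAAAGT, the Prdm1 core, was in 3, 1 each of Esrrb, Neurod1 and Samd7 (12.3%). AGGTCA, the core of nuclear receptor sites, was in none of the 15, and in 14.0% of all. No motif overlapped another in these windows, and no match is evidence of binding.

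The regulators were also compared with each other and with all symbols by the Euclidean distance of the 8 log2 values. Among themselves the closest pairs were Otx2 with Neurod1 at 1.66 and Crx with Nr2e3 at 1.88, and the farthest were Rorb and Esrrb at 11.8. The 5 symbols nearest to Crx were Plekhb1, Gm514, Ccdc24, Cacna2d4 and Synrg, at 0.806 to 1.43. Plekhb1 had an H3K4me2 of 28, 21, 30 and 174 and an H3K27me3 of 7, 6, 5 and 6. Nearest to Nr2e3 were Gm7616, BC027072, Plch2, Ppef2 and Slc1a7, and nearest to Nrl were Arfgef2, Eepd1, Bbs2, Fam149a and Man2b2. Samd7 had Gdf2, Taf9b, Pygm, Fabp12 and Fscn2 nearest, all at 1.36 or more. The symbols nearest to Otx2 included Aatf, Coasy, Dctn3 and Mypop, and Neurod1 was nearest to Phpt1, Leng9, Ankrd33b, Bmi1 and Coasy. Esrrb was nearest to Foxa3, Nt5c2, Ina, Ocln and Hrk, Mef2d to Mllt6, Cdkn2c, Fbxl15, Junb and Celf4, Prdm1 to Nfib, Dll1, Rassf1, Abtb2 and Nfil3, and Rorb to Cnot7, Ganab, 2310035C23Rik, Atp5f1 and AI597479.

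Genes downstream of the regulators and genes of other fates set these values in context. For comparison, from E17.5 to PN15 H3K4me2 rose at 5.17% of all symbols and fell at 12.8%. H3K27me3 rose at 12.2% and fell at 16.1%. Of 27 rod effector genes, the phototransduction and outer segment genes that Crx and Nrl activate, H3K4me2 rose at 24 from E17.5 to PN15 and fell at 0, with a median relative log2 change of 2.30, against 5 of 10 and 1.14 for the regulators. Rcvrn, the calcium sensor recoverin, went from 1 to 134, Cnga1, a channel subunit, from 6 to 126, Pde6a, a phosphodiesterase subunit, from 6 to 118, and Mpp4, a scaffold protein, from 11 to 164. The median occupancy at E17.5 was 11 for the rod effectors and 60.5 for the regulators. H3K27me3 of the rod effectors fell at 8 of 27 and rose at 1. Of 11 other regulators of photoreceptor genes, H3K4me2 rose at 1 (Pias3, 50 to 137) and fell at 1 (Tbx2, 105 to 34), and H3K27me3 rose at 2, with Tbx2 going from 19 to 164, and fell at 1. Of 8 housekeeping genes none passed the limit for either mark, with medians of −0.07 for H3K4me2 and −0.21 for H3K27me3.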

How the data were processed

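The 10 regulators and all gene lists were chosen with earlier results of these data known. The authors sequenced ChIP DNA of H3K4me2 and H3K27me3 from pooled retinas, mapped reads to mm9 (the submitters' processing notes name Bowtie 0.12.4), dropped reads with several positions, placed read midpoints by a 190 bp fragment, and summed those within 2.5 kb of a RefSeq TSS. In the deposited table these sums are scores, normalized by the authors to mapped reads and rounded, in 8 columns, of which the one for H3K27me3 at PN7 has an added b in its name.

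As the values are not counts and each mark and stage has 1 library, no model was fitted. The value of 1 read was recovered from which whole numbers are rare in a library. It was 0.536 and 0.946 for H3K4me2 at E17.5 and PN1, and 0.820, 0.313 and 0.873 for H3K27me3 at PN1, PN7 and PN15, and was taken as 1, its upper limit, elsewhere, which gives at least 676637 reads per library in the windows. Intervals are exact Poisson for levels and Clopper-Pearson for ratios. A gene with several rows is counted by the row with the largest sum. Named genes are every member and row, the 5 nearest symbols of each, up to 4 per list with the largest H3K4me2 change, and the nearest paralogues. Cngb1 and Samd11 had no row, and some genes under this rule are not reported here. Sites are from GENCODE M1 (mm9) and promoters from RefSeq (GRCm38.p6). The alternatives were a pseudocount of 5, no centring, the mean over rows, centring over symbols with at least 10 in 1 of the libraries, a limit of 3-fold, and other background rows. PN1 in place of PN7, and other background rows at PN1 and PN7 and for the combined calls, were added after seeing the data. The steps were tested on simulated data. Python 3.11.15, numpy 2.4.6, pandas 2.3.3, scipy 1.17.1 and matplotlib 3.10.9 were used.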

Additional observations from a re-analysis of the deposited data

How the results depend on the processing

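Among the counts, medians and background calls of the regulators and their alternatives, 63 values stayed within 1.5 times of, or close to, those reported and 9 moved. Counts that stayed at 0 are among the 63. A change of direction could be seen only in the medians, and these showed none. With a limit of 3-fold in place of 2-fold, H3K4me2 rose from E17.5 to PN15 at 3 regulators in place of 5 (1.58% of all symbols) and H3K27me3 at 0 in place of 1 (802 of the 20045 symbols), H3K4me2 rose from PN1 to PN7 at 1 in place of 3 (2.91%) and from PN7 to PN15 at 2 in place of 4 (6.25%), and H3K27me3 fell from PN7 to PN15 at 1 in place of 4 (1.55%). A stricter limit passes fewer genes by construction. Without subtraction of the median over all symbols, H3K4me2 rose from PN1 to PN7 at 1 regulator (4.09%), and from PN7 to PN15 at 9, where 52.3% of all symbols then rose. With the median taken over symbols of at least 10 in 1 of the libraries it rose from PN1 to PN7 at 1 (7.99% of those symbols). With the mean over rows the relative log2 change of H3K4me2 from E17.5 to PN15 was 2.12 for Crx and 1.12 for Rorb, so that Rorb passed the limit and 6 regulators rose in place of 5 (5.13% of all symbols). No paired analysis was possible because each mark and stage has 1 library and the labels give no replicate numbers. With vomeronasal receptor rows as background, chosen after seeing the data for this stage, 5 regulators in place of 3 had H3K27me3 above it at PN7. The share of all symbols above background was then 29.5% in place of 15.9%. At the low H3K27me3 of Crx and Nr2e3 the counting intervals of the ratio of PN15 to E17.5 ran from 0.285 to 2.67 and from 0.440 to 3.44, so a change inside them was not detectable at this depth.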

Other observations

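The closest relatives of the regulators were set beside them, with no test of a difference. Of 19 paralogues H3K4me2 rose from E17.5 to PN15 at 0 and fell at 5, where 5.17% of all symbols rose and 12.8% fell. H3K27me3 rose at 3 and fell at 6, where 12.2% rose and 16.1% fell. The median relative log2 changes of the paralogues were −0.42 for both marks. Otx1, the paralogue of Otx2 and Crx, had an H3K4me2 of 73, 39, 32 and 15 by stage and an H3K27me3 of 349, 590, 447 and 260. At E17.5 its H3K4me2 was the same as that of Otx2, and at PN15 Otx2 had 140. With pairs of values at E17.5 and PN15 from here on, Nr2e1, the progenitor relative of Nr2e3, went from 118 to 37 in H3K4me2 and from 65 to 184 in H3K27me3. Neurod2 went from 31 to 11 and from 487 to 217, and Neurod4 from 36 to 23 and from 8 to 8. Neurod6 had 10 and 8, and 30 and 13. Of the large Maf factors related to Nrl, Maf had 104 and 100 in H3K4me2 with 17 and 65 in H3K27me3, and Mafa had 27 and 17 with 223 and 97. Rora, related to Rorb, had 85 and 88 with 27 and 42. At Esrra H3K27me3 fell from 81 to 17, at an H3K4me2 of 69 and 60, while Esrrg had 31 and 33 with an H3K4me2 of 78 and 115. Mef2a had an H3K4me2 of 60 and 63, Mef2b of 14 and 10 and Mef2c of 1 and 2, none with the gain of Mef2d.

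Among regulators of other fates, H3K27me3 rose at 9 of 10 progenitor regulators and H3K4me2 fell at 5, with Pax6 going from 4 to 178 in H3K27me3 and from 137 to 44 in H3K4me2, and with Sox2 and Tbx3 at 104 and 36, and 107 and 36 in H3K4me2. For this list and those that follow, H3K4me2 rose at 5.17% of all symbols and fell at 12.8%, and H3K27me3 rose at 12.2% and fell at 16.1%. Of 9 proneural factors H3K4me2 fell at 4 and rose at 0, and H3K27me3 fell at 4 and rose at 1. Atoh7 had 97 and 24 in H3K27me3, with H3K4me2 of 63 and 33, Olig2 had 80 and 21 in H3K4me2 and Ptf1a had 58 and 24. Of 13 inner retina regulators H3K4me2 fell at 8 and rose at 0, H3K27me3 fell at 3 and rose at 1, and all 13 were above the H3K27me3 background at each stage. Lhx1 went from 71 to 19 in H3K4me2, Pou4f2 from 64 to 20, Tcfap2b from 54 to 18 and Isl1 from 44 to 15. Of 9 cone genes H3K27me3 rose at 5 and fell at 0, and H3K4me2 rose at 1 (Arr3, 2 to 7, below the backgrounds of 6 and 9.48) and fell at 2 (Opn1sw, 11 to 2, and Cngb3, 18 to 8).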
